A study of Drosophila melanogaster with 2 samples.

Results

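The Hox genes of Drosophila melanogaster were examined in a ChIP-seq experiment on the protein encoded by CG43347, which the labels also call by its older name CG9817. The members were 8 genes, taken by name from the Ensembl BDGP6 annotation of 13945 protein-coding genes: lab, pb, Dfd, Scr, Antp, Ubx, abd-A and Abd-B. All 8 lie on chromosome arm 3R. For each gene the peak summits inside the annotated gene and up to 20 kb on either side were read, with the annotated feature at the summit, the rank of the peak and its signal. Neighbouring Hox genes share parts of these windows, so the 8 windows made up 6 separate regions and covered 627 kb.

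The material was whole embryos aged 10 to 24 h from a stable transgenic line in which CG9817 is fused to GFP at its C-terminus, and chromatin was precipitated with an antibody against GFP, which reads the tagged protein and not the native one. There were 2 biological replicates, numbered 1 and 3, which formed 1 group, and no untreated or untagged samples were analysed here. Whole embryos mix all cell types and all segments, so a peak cannot be assigned to the cells in which a given Hox gene is on or off. The deposited peak lists hold 30000 peaks for each replicate, 30000 peaks called on the pooled replicates and 5038 peaks that passed a threshold of irreproducible discovery rate (IDR), a measure of how well peaks rank alike in both replicates. The IDR-thresholded peaks were exactly the 5038 strongest of the pooled list, so ranks in the pooled list hold for both. Signal is the authors' value for each peak, with no definition of its scale in the sources used here, so it was compared only within a list. The full pooled list also holds peaks with a low −log10 q, the authors' score of how unlikely a false call is. Such peaks were counted as listed and are not shown to be bound sites.

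Hox genes encode homeodomain transcription factors that give the segments along the head-to-tail axis their identity. In Drosophila they sit in a pair of clusters, the Antennapedia complex (lab, pb, Dfd, Scr and Antp) and the bithorax complex (Ubx, abd-A and Abd-B). Their expression is set by enhancers in introns and in the long intervals between genes, and is held over cell divisions by Polycomb and trithorax group proteins, often from sites far from the promoter. A transcription start site (TSS) and an intron are therefore both places where a regulator of these genes could bind.

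The strongest IDR-thresholded peaks inside Hox genes lay in introns of Abd-B and Antp. The sequences of the 6 strongest of them are shown here because the results turn on these sites. Each runs from 100 bp before to 100 bp after the summit, from the plus strand of the RefSeq release 6 genome, 5′ to 3′, with GAGAG or its complement CTCTC, the letters bound by GAGA factor, in capitals. GAGA factor is a DNA-binding protein of the trithorax group. The position in each name is the distance of the summit from the 5′ end of the gene.
Abd-B 13.9 kb, chr3R:16958193-16958393: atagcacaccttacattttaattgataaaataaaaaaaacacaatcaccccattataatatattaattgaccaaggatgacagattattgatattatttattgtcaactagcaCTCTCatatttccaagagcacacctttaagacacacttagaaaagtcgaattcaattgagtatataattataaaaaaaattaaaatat
Antp 86.7 kb, chr3R:6912442-6912642: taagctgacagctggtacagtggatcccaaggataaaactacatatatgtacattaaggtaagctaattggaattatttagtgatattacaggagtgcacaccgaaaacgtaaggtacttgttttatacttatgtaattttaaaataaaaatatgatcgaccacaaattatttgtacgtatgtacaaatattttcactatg
Abd-B 2.25 kb, chr3R:16969883-16970083: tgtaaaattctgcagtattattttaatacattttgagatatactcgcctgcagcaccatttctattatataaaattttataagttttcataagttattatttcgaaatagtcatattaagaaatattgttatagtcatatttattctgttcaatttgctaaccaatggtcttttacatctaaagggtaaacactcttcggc
Antp 79.0 kb, chr3R:6920091-6920291: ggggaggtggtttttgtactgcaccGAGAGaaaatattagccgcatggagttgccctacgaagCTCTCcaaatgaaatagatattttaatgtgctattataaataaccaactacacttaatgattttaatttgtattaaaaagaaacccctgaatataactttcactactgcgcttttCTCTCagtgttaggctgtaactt
Antp 62.9 kb, chr3R:6936225-6936425: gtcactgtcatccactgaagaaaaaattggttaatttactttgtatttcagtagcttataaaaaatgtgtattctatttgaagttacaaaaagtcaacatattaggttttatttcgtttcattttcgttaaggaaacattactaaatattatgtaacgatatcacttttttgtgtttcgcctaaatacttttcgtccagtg
Antp 84.7 kb, chr3R:6914458-6914658: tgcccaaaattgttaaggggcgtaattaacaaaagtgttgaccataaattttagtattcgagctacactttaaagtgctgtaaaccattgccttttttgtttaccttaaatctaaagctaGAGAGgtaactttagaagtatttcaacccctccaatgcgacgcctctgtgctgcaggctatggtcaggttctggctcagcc
The GAGAG letters occurred 3 times at Antp 79.0 kb, once each at Abd-B 13.9 kb and Antp 84.7 kb, and were not in the other 3 windows. GC content of the 6 windows ran from 24.9% to 40.8%, against a median of 34.3% over all 5038 summit windows.

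The IDR-thresholded list held 22 summits in the Hox windows, and 9 of them were inside the genes. The 9 were unevenly spread, with 6 in Antp, 2 in Abd-B and 1 in pb. None lay inside lab, Dfd, Scr, Ubx or abd-A. The windows held 3.51 summits per 100 kb (95% exact Poisson interval 2.20 to 5.31), against 3.77 on the whole of arm 3R, so the Hox loci were neither richer nor poorer in these peaks than the arm beyond counting error. Intervals cover counting error only, since neighbouring peaks come from the same libraries and the depth of the libraries is unknown. In the pooled list the windows held 117 summits, or 18.6 per 100 kb (15.4 to 22.3), against 24.1 per 100 kb on 3R, which lies above the Hox interval. The difference was not clear of counting error elsewhere. Inside the genes the pooled list held 19.3 per 100 kb (14.9 to 24.5). The replicate lists held 127 Hox summits each, or 20.2 per 100 kb (16.9 to 24.1), against 23.6 on 3R in replicate 1 and 24.1 in replicate 3.

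**Figure D1:**
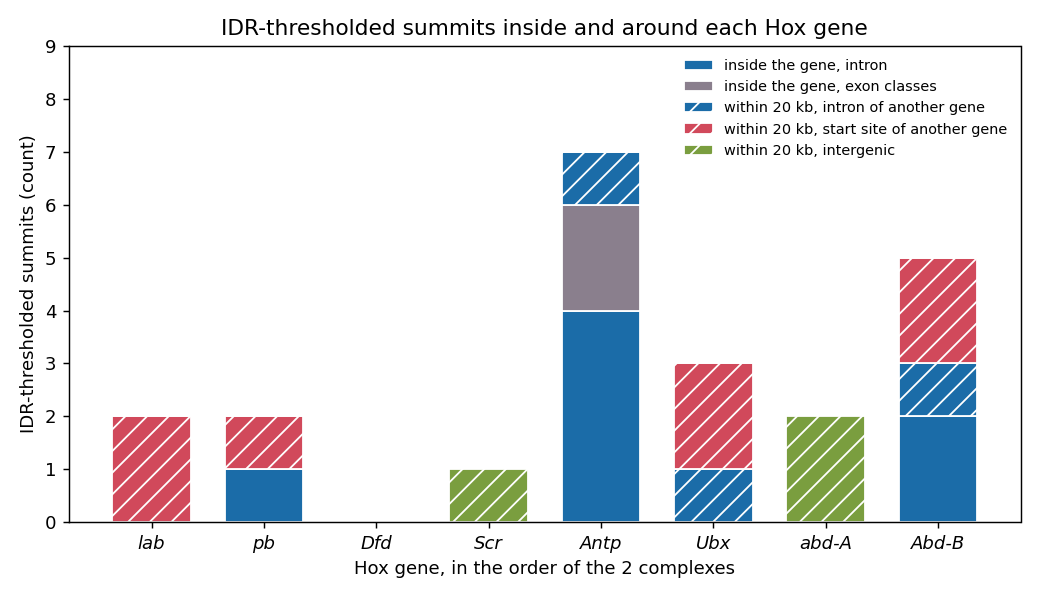
Number of IDR-thresholded summits for each Hox gene, with solid bars for summits inside the gene, hatched bars for those within 20 kb of it, and colours for the position class. Antp held 6 of the 22 IDR-thresholded summits, Abd-B 2 and pb 1, and none of the 22 was within 500 bp of a Hox TSS.

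None of the 8 Hox genes had an IDR-thresholded summit within 500 bp of any of its TSSs, 19 TSSs in all (0 of 8, 95% Wilson interval 0 to 32.4%). Among all coding genes 23.7% had one, and among the 1977 coding genes of at least 10 kb, the length range of the Hox genes, 30.8% had one. The upper end of the Hox interval lies above both shares, so with 8 genes a lower share than the background is not shown. An intronic summit inside the gene was found for 3 of 8 Hox genes (pb, Antp and Abd-B; 37.5%, 13.7 to 69.4%). The share was 7.14% among all coding genes but 38.1% among those of at least 10 kb, and the Hox count was close to the second. Any summit inside the gene gave the same 3 of 8, against 12.8% and 46.5%. All but 1 of the 8 Hox genes, Dfd being the exception, had some IDR-thresholded summit in the window, against 82% of all coding genes and 85.9% of the long ones.

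Antp, which sets the identity of the second thoracic segment and gives its name to the complex, held 6 of the 9 IDR-thresholded summits inside Hox genes, 27 of the 65 pooled ones and 7 of the 22 IDR-thresholded summits in the windows. The gene spans 103 kb (chr3R:6896253-6999228, minus strand, release 6) and has 3 TSSs. Its 6 IDR-thresholded summits lay between 62.9 and 95.7 kb from the 5′ end. The 40.9 kb between the upstream and the middle TSS held 0, the 25.5 kb between the middle and the downstream TSS held 1, and the 36.6 kb from the downstream TSS to the gene end held 5. In the pooled list these stretches held 5, 8 and 14 summits, in replicate 1 they held 4, 7 and 14, and in replicate 3 they held 4, 8 and 13, so the longest stretch, next to the upstream TSS, held the fewest summits in every list. An annotated coding gene, CG46458, shares with Antp everything downstream of the middle TSS, so these positions count for both genes.

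The strongest peak inside Antp (chr3R:6912447-6912618, intron) had a signal of 305.5 and rank 1991 in the pooled list. It ranked 2145 in replicate 1 with a signal of 115.4, and 1970 in replicate 3 with a signal of 190.1. The other 3 intronic peaks of Antp were close to one another in strength. The peak at 79.0 kb had a signal of 274.0 and rank 2287, and it ranked 2304 in replicate 1 and 2380 in replicate 3. The peak at 62.9 kb, which lies 3485 bp upstream of the downstream TSS, had a signal of 272.7 and rank 2297, and it ranked 1734 in replicate 1 and 2997 in replicate 3. The peak at 84.7 kb had a signal of 266.5 and rank 2354, and it ranked 2329 in replicate 1 and 2495 in replicate 3. All 4 were thus among the 5038 strongest of each replicate, and all 4 were narrow, from 104 to 172 bp.

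A further pair of Antp summits fell on exons and was weaker and wider (350 bp each). The first (chr3R:6903304-6903653) lies within an Antp intron, on an exon of lncRNA:CR43252, with a signal of 167.3 and rank 3903. The second (chr3R:6908129-6908478) lies in a 3′ UTR of Antp, with a signal of 146.7 and rank 4424, and it ranked 3504 in replicate 1 but 5634 in replicate 3. At the Antp TSSs the closest pooled summit was 886 bp away, with a signal of 48.8 and rank 17790. Replicate 1 had a weak peak 151 bp from the downstream TSS at rank 12980, and replicate 3 had one 325 bp from the same TSS at rank 25252. Beyond the 3′ end of Antp, an intron of lncRNA:CR44931 held an IDR-thresholded peak (chr3R:6881597-6881946) with a signal of 170.3 and rank 3840. It ranked 3353 in replicate 1 and 4100 in replicate 3.

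The count of 6 IDR-thresholded summits inside Antp was reached or passed by 42 of 13945 coding genes. Most of those genes are long. Of 307 coding genes of at least 50 kb, 30 had 6 or more and 119 (38.8%) had none, with a median of 1. Per 100 kb, Antp held 5.83 (2.14 to 12.7), against 2.94 for all coding genes of at least 10 kb together. Ubx is 77.8 kb long and held 0 per 100 kb (0 to 4.74). The intervals of Antp and Ubx overlap, but that of Ubx ends below the 5.83 of Antp. Whether the 2 genes differ was not tested.

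**Figure D2:**
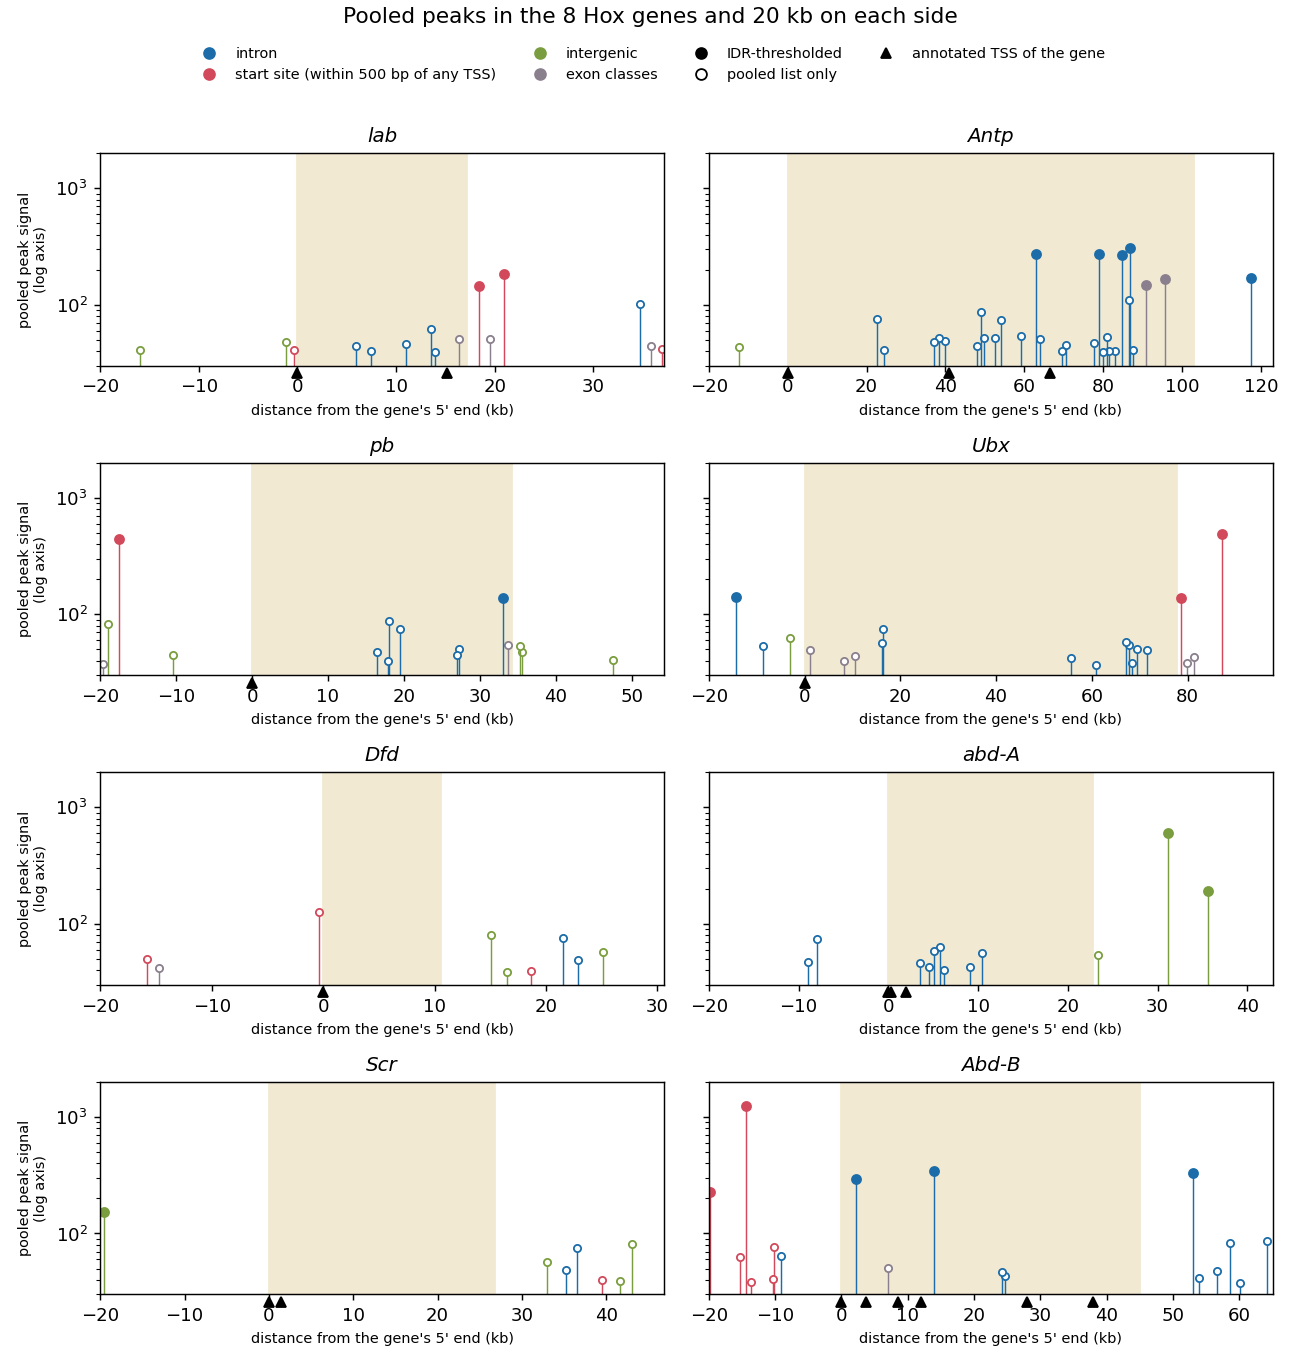
Pooled peaks in each Hox gene (shaded) and the 20 kb on either side; the x axis is distance from the 5′ end of the gene in kb, the y axis is the authors' signal on a log axis, filled points passed the IDR threshold and triangles mark the TSSs of the gene. The 6 filled points inside Antp sit between 62.9 and 95.7 kb, and no filled point lies on a triangle.

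Abd-B, the most posterior member, which patterns the posterior abdomen and the genital segments, spans 45.0 kb (chr3R:16927212-16972236, minus strand) and has 6 TSSs. It held the 2 intronic IDR-thresholded peaks nearest to any Hox TSS. The stronger (chr3R:16958274-16958364) had a signal of 342.0 and rank 1734, the highest of any peak inside a Hox gene, and lay 1988 bp downstream of a TSS. It ranked 1916 in replicate 1 with a signal of 128.7, and 1681 in replicate 3 with a signal of 214.3. The other (chr3R:16969808-16970157) had a signal of 295.7 and rank 2089 and lay 1409 bp upstream of a TSS. It ranked 1582 in replicate 1 with a signal of 147.5, and 2883 in replicate 3 with a signal of 139.2. The replicates ranked these 2 peaks in opposite order, and both peaks were well inside the 5038 strongest of each replicate. Within 500 bp of a TSS only replicate 3 had a summit, 183 bp upstream of one of them, with a signal of 30.6 and rank 23340.

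Upstream of Abd-B lay the strongest peak of all the Hox windows. It sits 194 bp downstream of the TSS of CG18622 (chr3R:16986513-16986793), 14.4 kb from the 5′ end of Abd-B, with a signal of 1237 and rank 197. It ranked 335 in replicate 1 and 164 in replicate 3. A start-site peak at lncRNA:CR45221, 19.8 kb from Abd-B, had a signal of 225.1 and rank 2850. On the other side of Abd-B, an intron of the noncoding gene lncRNA:iab8 held a peak (chr3R:16919183-16919356) with a signal of 332.6 and rank 1801. That peak ranked 1194 in replicate 1 and 2499 in replicate 3.

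Ubx, which distinguishes the third thoracic segment and the first abdominal segment, had no IDR-thresholded summit inside it. Its pooled peaks inside the gene numbered 12, and the strongest had a signal of 75.1 and rank 8997. That peak had a −log10 q of 0.756, against 2.65 for the lowest IDR-thresholded peak of the Hox windows. Of these 12, 5 had a counterpart (at least 50% reciprocal overlap) in both replicates, against 42 of the 117 pooled peaks of all Hox windows. The strongest of the 12 ranked 9327 in replicate 1 and 11074 in replicate 3. A pooled peak that overlaps it was matched to the same replicate 1 peak, and both are among the 5. Some peaks appeared in only 1 replicate. Replicate 3 held an intronic peak 29.9 kb from the 5′ end (chr3R:16704366-16704715) with a signal of 108.5 and rank 3753, and no peak of replicate 1 or of the pooled list overlapped it. Replicate 1 held a summit 108 bp downstream of the Ubx TSS at rank 19009, whereas the closest pooled summit and the closest in replicate 3 were 1086 bp away. The nearest IDR-thresholded summit was 14.4 kb upstream, in an intron of the noncoding gene lncRNA:bxd of the bithorax complex, with a signal of 141.6 and rank 4602. It ranked 3172 in replicate 1 and 7256 in replicate 3. The other 2 peaks of the Ubx window were at the start sites of CG10324 (signal 492.1, rank 1025) and modSP (signal 138.1, rank 4716). The peak at CG10324 ranked 777 in replicate 1 and 1410 in replicate 3, whereas the peak at modSP ranked 9697 in replicate 1 and 3455 in replicate 3.

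abd-A, which specifies most abdominal segments, likewise had no IDR-thresholded summit inside it, and 7 pooled ones, the strongest with a signal of 63.7 and rank 11180. No list had a summit within 500 bp of its 3 TSSs. Beyond its 3′ end lay the second strongest peak of all the Hox windows, an intergenic one (chr3R:16798784-16799026) 31.2 kb from the 5′ end of abd-A and 1719 bp upstream of the TSS of lncRNA:CR45750. It had a signal of 607.0 and rank 719, and it ranked 441 in replicate 1 and 1170 in replicate 3. A second intergenic peak beyond it (chr3R:16794239-16794588) had a signal of 191.5 and rank 3389, and it ranked 5740 in replicate 1 and 2711 in replicate 3. The TSS nearest to this second peak is that of Glut3, 6103 bp away.

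The other 4 genes of the Antennapedia complex held 1 IDR-thresholded summit between them, and the intervals per 100 kb (0 to 21.5 for lab, 0.0739 to 16.3 for pb, 0 to 34.8 for Dfd and 0 to 13.7 for Scr) all hold the 5.83 of Antp. In the pooled list lab held 35.0 summits per 100 kb and pb 23.3, beside 26.2 in Antp and none in Dfd or Scr. pb, which patterns the mouthparts, had 1 intronic IDR-thresholded peak (chr3R:6708891-6709240), 33.0 kb from the TSS and near the 3′ end of the gene. Its signal of 138.5 and rank of 4698 put it near the foot of the list, and it ranked 3364 in replicate 1 but 6339 in replicate 3. The only other peak of the pb window was at the start site of bcd, the gene of the anterior morphogen, with a signal of 446.6 and rank 1194. lab, the most anterior member, which acts in the head and the midgut, had 2 IDR-thresholded peaks in its window, both at start sites of other genes, CG1307 (signal 184.2, rank 3528) and agt (signal 143.9, rank 4515). Inside lab the strongest of 6 pooled peaks had a signal of 62.3 and rank 11586.

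Scr, which specifies the labial and first thoracic segments, had 1 IDR-thresholded peak in its window, an intergenic one 19.5 kb upstream, and the TSS nearest to this peak is that of the segmentation gene ftz. The peak had a signal of 153.3 and rank 4247, and it ranked 6430 in replicate 1 and 3623 in replicate 3. The 26.9 kb of Scr itself held no pooled peak. Dfd, which acts in the maxillary and mandibular segments, also held no pooled peak inside its 10.6 kb, and it was the only member with an empty window in the IDR-thresholded list. It nevertheless had the strongest peak at any Hox start site. That peak (chr3R:6791254-6791603), 407 bp upstream of the TSS, had a signal of 127.6 and rank 5091, just past the last of the 5038 peaks that passed. The lowest signal in the IDR-thresholded list was 129.2. The replicates differed here, since a peak 335 bp upstream ranked 3149 in replicate 1 with a signal of 82.3, and the one 407 bp upstream ranked 16256 in replicate 3 with a signal of 36.7.

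Apart from Dfd, peaks within 500 bp of Hox TSSs were weak, with ranks of 12980 or beyond in every list. In the pooled list 2 of 8 Hox genes had one, Dfd and lab (402 bp upstream, signal 41.1, rank 24646), against 48.2% of all coding genes and 65.4% of those of at least 10 kb. The −log10 q was 2.4 for the Dfd peak and 0.0764 for the lab peak. Replicate 1 gave 3 of 8 (Dfd, Antp and Ubx), against 53% of all coding genes and 70.8% of the long ones. Replicate 3 gave 4 of 8 (lab, Dfd, Antp and Abd-B), against 45.4% and 60.7%. Among the 5038 strongest peaks of each replicate, replicate 1 gave 1 of 8 (Dfd) against 26.8% of all coding genes and 34.3% of the long ones, and replicate 3 gave 0 of 8 against 21.8% and 28.9%. pb, Scr and abd-A had no peak within 500 bp of a TSS in any list. Just beyond that distance, replicate 1 had stronger summits than those of rank 12980 or beyond. One was 534 bp from the pb TSS (signal 32.5, rank 8392), and another was 668 bp from an Abd-B TSS (signal 36.3, rank 7341). An intronic summit of any strength was inside 6 of 8 Hox genes in the pooled list, against 18.4% of all coding genes and 82.1% of the long ones. It was inside 7 of 8 in replicate 1, against 18.5% and 82.5%, and inside 7 of 8 in replicate 3, against 18.3% and 82.4%. Intronic peaks among the 5038 strongest were found in pb, Antp and Abd-B in replicate 1 (3 of 8, against 6.35% of all coding genes and 33.3% of the long ones) and in Antp, Ubx and Abd-B in replicate 3 (3 of 8, against 7.47% and 39.9%).

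Intronic and start-site peaks of the windows were then set side by side. In the IDR-thresholded list 10 of the 22 Hox summits were intronic (45.5%, 26.9 to 65.3%) and 7 were at start sites (31.8%, 16.4 to 52.7%), against 33.9% intronic and 52.1% start-site in the whole list. Both Hox intervals hold the whole-list share of their class. All 7 start-site summits were at other genes that lie in the windows, while 7 of the 10 intronic ones were inside a Hox gene and the other 3 were in lncRNA:CR44931, lncRNA:bxd and lncRNA:iab8. Restricted to the 9 summits inside the genes, 7 were intronic and 0 were at a start site. This restriction drops intergenic summits and those upstream of a gene by definition, so the whole-list shares are not a background for it. The same share inside all coding genes is not given here.

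The intronic peaks covered a narrower range of strength than the start-site peaks. Their signals ran from 138.5 to 342.0 with a median of 273.4, against 138.1 to 1237 with a median of 225.1 at the start sites. Their ranks ran from 1734 to 4698 (median 2292), against 197 to 4716 (median 2850) at the start sites, so the strongest start-site peaks outranked every intronic one while the medians went the other way. Over the whole list the median rank was 2848 for introns and 2157.5 for start sites. Among the 2519 strongest peaks were 7 of the 10 intronic and 3 of the 7 start-site peaks. The order of the medians in the Hox windows did not hold in both replicates, nor among the 2519 strongest peaks (2089 for introns, 1025 for start sites). Among the 5038 strongest peaks of replicate 1 the median rank was 2304 for 11 intronic and 2619 for 8 start-site peaks, and in replicate 3 it was 2499 for 9 intronic and 2052.5 for 6 start-site peaks.

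Intronic peaks made up more of the full pooled list. In the pooled list 72 of 117 Hox summits were intronic (61.5%, 52.5 to 69.9%) and 16 were at start sites (13.7%, 8.60 to 21.1%), against 40.9% intronic and 26.1% start-site in the whole list. Both Hox intervals exclude the whole-list share. The long introns of these genes and their few start sites were part of the same windows, and the part that annotation makes in this difference was not tested. Of the 72 intronic peaks, 10 (13.9%, 7.72 to 23.7%) passed the IDR threshold, and of the 16 start-site peaks, 7 (43.8%, 23.1 to 66.8%) passed. In the whole pooled list the shares were 13.9% for introns and 33.5% for start sites. The median pooled rank of the Hox intronic peaks was 16207.5, and that of the start-site peaks was 6913.

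**Figure D3:**
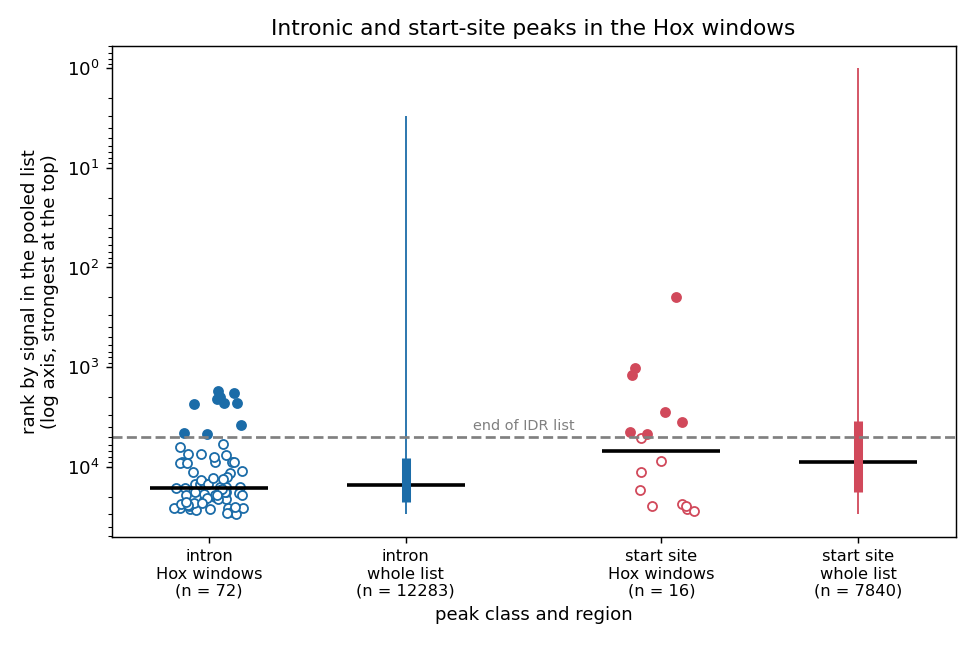
Rank in the pooled list (log axis, strongest at the top) of intronic and start-site peaks in the Hox windows, each point a peak and filled where it passed the IDR threshold, beside the same class in the whole list. Black bars are medians, thick bars the middle 50% of the whole list and thin lines its range; the 10 filled intronic points sit between ranks 1734 and 4698, and the 7 filled start-site points between 197 and 4716.

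The replicates shared the Hox peaks about as often as the rest of the list. A counterpart, defined as a peak with at least 50% reciprocal overlap, was present in both full replicate lists for 17 of the 22 IDR-thresholded Hox peaks, against 79.2% of all 5038. It was present for 5 of the 10 intronic peaks, 7 of the 7 start-site peaks and 5 of the 9 peaks inside the genes. The 5 intronic peaks without one were narrow (91 to 174 bp), and where a shared base was enough (1 bp) all 22 peaks had a counterpart in both replicates. In the whole list the shares at 50% were 79.3% for introns and 79.8% for start sites. The part that peak width makes in the lower intronic count was not tested. Read by an overlap of 1 bp, 8 of the 10 intronic peaks and 5 of the 7 start-site peaks were among the 5038 strongest of both replicates. The IDR-thresholded peaks were selected from these same replicates, which favours such matches. The counts by 1 bp and the replicate orders below were not computed over all 5038 peaks, so they only describe the Hox peaks. The intronic peaks ranked higher in replicate 1 than in replicate 3 for 8 of 10, and the start-site peaks for 4 of 7. The intronic peaks of pb and of lncRNA:bxd were the 2 that fell outside the 5038 strongest of replicate 3.

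**Figure D4:**
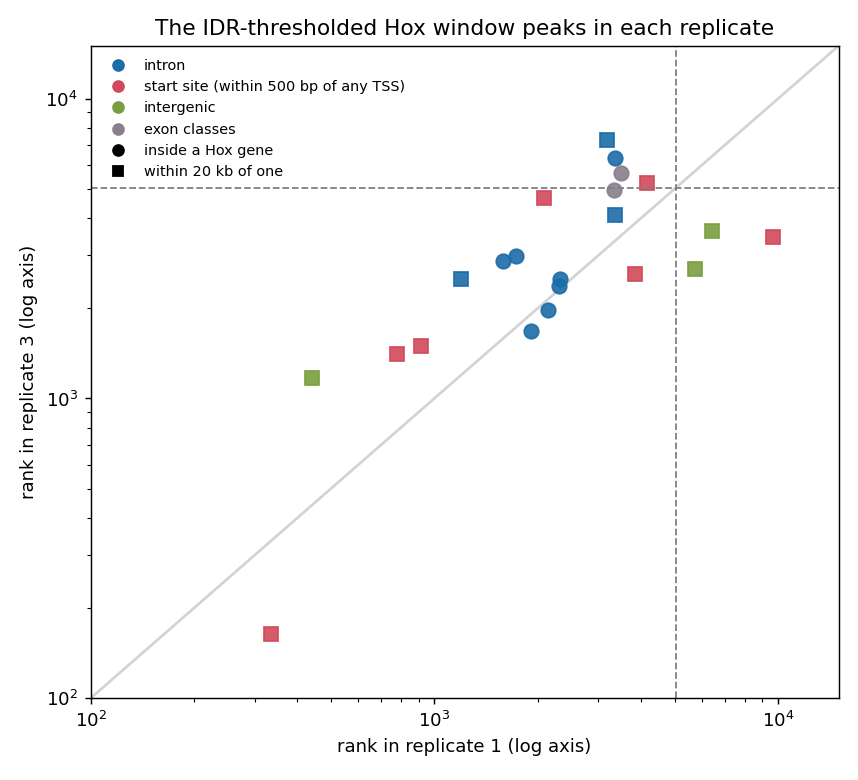
Rank of each IDR-thresholded Hox peak in replicate 1 and in replicate 3 (log axes), by position class, with circles inside a Hox gene, squares within 20 kb of one, and peaks matched where they share 1 bp or more. The grey diagonal marks equal rank and the dashed lines mark rank 5038. Of the 10 intronic peaks 8 ranked higher in replicate 1, and the start-site peak at CG18622 ranked 335 in replicate 1 and 164 in replicate 3.

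Sequences at the 22 summits were searched on both strands for 8 short motifs in windows reaching 100 bp to either side. GAGAG was in 9 of 22 Hox windows (40.9%), against 19.6% of all 5038. It was found in 4 of the 10 intronic and 4 of the 7 start-site windows, against 21.9% and 17.6% of these classes in the whole list. GCCAT, the core bound by the Polycomb recruiter Pleiohomeotic, was in 22.7% of the Hox windows and 25.2% of all. TAAT, the core of homeodomain sites, was in 95.5% of the Hox windows and 93.0% of all, a motif so short that nearly every window holds it. TGATNNAT, a form of the joint site of Hox proteins and their cofactor Exd, was in 3 of 22 Hox windows (13.6%), against 15.7% of all windows. All 3 were at start sites and 0 of the 10 intronic windows held it, against 15.3% of all start-site and 16% of all intronic windows. CGATA, a core for the insulator protein BEAF-32, was in 31.8% of the Hox windows and 31.2% of all. TATCGATA, the DNA replication-related element, which contains CGATA, GGTCACAC, the site of M1BP, and CAGGTAG, the site of Zelda, were in 1 Hox window each (4.55%), against 4.29%, 2.08% and 0.834% of all windows. Counts this small describe these windows only, and a match is not evidence of a bound site.

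Genes that work with the Hox proteins were read by the same rules. Of 4 Hox cofactor genes (exd, hth, tsh and tio), 0 had an IDR-thresholded peak at a TSS, against 23.7% of all coding genes. Intronic summits were in 1 of the 4, against 7.14% of all coding genes and 38.1% of those of at least 10 kb. That 1 was hth, whose protein brings Exd into the nucleus, with 5 intronic summits in 132 kb, the best (chr3R:10597635-10597889) with a signal of 636.4 and rank 663. Of 12 genes known as targets of Hox proteins in the embryo, 2 had a peak at a TSS, fkh (signal 250.8, rank 2529) and apt (signal 291.5, rank 2116), against 23.7% of all coding genes. An intronic summit was in 2 of the 12, against the same 7.14% and 38.1%, namely apt with 5 (the best with a signal of 787.1 and rank 473) and dpp with 1 (signal 536.2, rank 883). fkh is a target of Scr in the salivary gland, and dpp is a target of Ubx in the midgut. In the pooled list 3 of the 4 cofactor genes and 8 of the 12 targets had a peak at a TSS. The share was 48.2% among all coding genes and 65.4% among those of at least 10 kb. The strongest such peak of each gene ranked from 6806 (tsh) to 25605 (hth) in the cofactors and from 2116 (apt) to 27454 (Con) in the targets. At hth neither replicate had a peak at a TSS.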

How the data were processed

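ChIP-seq peak lists of 2 biological replicates (1 and 3) of 10 to 24 h embryos were used. Per the labels' protocols, chromatin was sonicated to 200 to 800 bp. The authors deposited narrowPeak lists on release 6 (dm6), per the labels, for each replicate, the pooled replicates and the IDR-thresholded set. The notes deposited with the lists give, beside the alignments each was made from, the further file also given for the control-normalized signal, and control libraries were not analysed here. The peak caller is not given in the sources used here. The signal of each peak is the authors' deposited value, and peaks were ranked by it within a list. The −log10 q value that the authors give for each peak was not used for ranking because many peaks share its highest value. Nor was it used as a cut-off, so counts from the full pooled list include peaks with low values. Read depth is unknown, and each full list is capped at 30000 peaks.

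Genes and TSSs came from Ensembl release 115 (BDGP 6.54; 18164 genes, 23581 TSSs), and sequences from the RefSeq release 6 genome. A summit was assigned once, in the order start site (within 500 bp of any TSS), UTR or coding exon (5′ UTR first, 3′ UTR last), any other exon, then intron, then intergenic. Counts were read against the same count over all coding genes and over those of at least 10 kb. No p-values were computed, because there is 1 group and peaks are not replicates. Intervals are 95% Wilson or exact Poisson intervals. Class assignment and peak matching were tested on simulated positions. Computation used Python 3.11.15, numpy 2.4.6, pandas 2.3.3, scipy 1.17.1 and matplotlib 3.10.9. Coordinates are 1-based.

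The members, gene lists and motifs were chosen with earlier results of these data known. By rule the text names all 8 Hox genes and every IDR-thresholded summit in their windows, with the gene whose TSS is nearest or whose intron holds it. Of the 11 other genes of the Hox complexes listed, 10 were matched by name; lncRNA:PHRA was not. The Antp segments, counts by gene length and the replicate 3 peak in Ubx were looked at after the values were seen. The replicate numbers label libraries of 1 group and pair nothing.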

Additional observations from a re-analysis of the deposited data

How the results depend on the processing

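Counts were recomputed with TSS distances of 250 and 1000 bp, flanks of 10 kb and none, other definitions of a shared peak, the 2519 strongest peaks, the whole pooled list, and each replicate's 5038 strongest peaks in place of the IDR-thresholded list. Of 56 such values, 36 stayed within 1.5 times the reported value, 17 did not, and 3 changed sign. All 3 were for the median rank of intronic minus start-site peaks, the only value here that can change sign. Where the reported count was 0, any other count was placed among the 17, even inside the interval given for 0 of 8 (0 to 32.4%). That difference, whose alternatives were chosen after seeing the data, was -558. It was -1833.5 with flanks of 10 kb, 1064 among the 2519 strongest peaks and 9294.5 in the pooled list, and it was 446.5 without replicate 1 and -315 without replicate 3; the cause was not tested. Without flanks it had no value, since no start-site peak was left. The Hox windows held 22 summits, against 9 without flanks, 11 among the 2519 strongest and 117 in the pooled list. Intronic summits numbered 10, against 72 in the pooled list. Start-site summits numbered 7, against 0 without flanks, 4 with flanks of 10 kb, 3 among the 2519 strongest and 16 in the pooled list. All 7 were at TSSs of other genes, as were 14 of the 16. The intronic share was 45.5%, against 77.8% without flanks, where intergenic summits drop out by definition. Hox genes with a peak at a TSS numbered 0, against 2 in the pooled list and 1 without replicate 3 (Dfd), and genes with an intronic summit numbered 3, against 6 in the pooled list. Counterparts in both replicates were found for 17 of 22 peaks, against 6 of 11 among the 2519 strongest, 5 of 9 without flanks and 10 of 15 with flanks of 10 kb. Leaving out 1 replicate gave 19 to 22 summits, 9 to 11 intronic, 6 to 8 at start sites and an intronic share of 47.4% to 50%. It gave 0 to 1 Hox genes with a peak at a TSS and 3 with an intronic summit. For counterparts the IDR-thresholded list was kept and only 1 full replicate list was searched, a looser rule than both. Of the 22 peaks, 17 had a counterpart in replicate 3 and 21 in replicate 1. No paired analysis was possible because the samples form 1 group.

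With 8 genes, 22 summits and 2 replicates, only large departures from the background could show. The scale of the signal and the depth are unknown, control lists were not analysed here, and whole embryos average over segments.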

Other observations

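Between abd-A and Abd-B, outside the 20 kb windows, the noncoding gene lncRNA:iab8 of the bithorax complex held a further pair of IDR-thresholded intronic peaks. The stronger (chr3R:16869298-16869452) had a signal of 353.2 and rank 1663, above every peak inside a Hox gene, and it ranked 1136 in replicate 1 and 2319 in replicate 3. The other (chr3R:16857036-16857385) lay 869 bp upstream of the microRNA gene mir-iab-8, with a signal of 185.3 and rank 3503, and it ranked 2161 in replicate 1 and 6342 in replicate 3. With the peak in the Abd-B window, lncRNA:iab8 held 3 intronic summits. In the Antennapedia complex the only IDR-thresholded peak of the complex outside the windows was at the start site of Ama, which encodes an immunoglobulin-domain cell adhesion protein, with a signal of 173.7 and rank 3767. Of the 10 matched neighbours of the Hox genes in both complexes, 2 (bcd and Ama) had a peak at a TSS, against 23.7% of all coding genes. An intronic one was in 2, lncRNA:bxd (31.1 kb) and lncRNA:iab8 (92.1 kb), both noncoding, against 7.14% of all coding genes. Among coding genes of at least 10 kb the share was 38.1%. The 10 include noncoding genes, some of them microRNA genes, so shares of coding genes are a loose background for them.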
